A study of Homo sapiens with 6 samples.

Results

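The MAPK feedback and output genes described here are 10 genes whose transcripts are made in response to signaling through RAS, RAF, MEK and ERK, and most of whose products act back on it: DUSP1, DUSP4, DUSP5, DUSP6, SPRY2, SPRY4, SPRED1, SPRED2, ETV4 and ETV5. They were taken by gene symbol from the 53826 entries listed in each file, and each symbol had 1 entry. The cells were PK-1 and Panc-1, human lines established from pancreatic ductal adenocarcinoma (PDAC). They were kept as Control or given an antagonist of retinoic acid receptor γ (RARγ) for 24 h, either LY2955303, called RARγi-1, or MM11253, called RARγi-2, which differ in structure. Each of the 6 conditions was sequenced once, from mRNA of the whole culture, so the differences below could not be checked against replicates and are given without p-values. The treatment entry of both RARγi-2 libraries reads RARγi-1, and those libraries were assigned by their titles. Neither the doses nor the vehicle of the RNA-seq cultures is stated in the sources used here.

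ERK, the last kinase of the cascade, is switched off by dual-specificity phosphatases (DUSPs), and the genes for several DUSPs are switched on by ERK itself. Sprouty (SPRY) and SPRED proteins act further up, where receptors activate RAS and RAF, and their genes also respond to ERK. ETV4 and ETV5 are ETS transcription factors of the PEA3 group and carry the output of the pathway to other genes. Transcript levels of such genes are often read as a sign of ERK output, although several of them, DUSP1 above all, also respond to stress. The comparison of treated with control libraries bears on whether these transcripts moved when RARγ was blocked. It does not measure the activity of ERK itself. For that, the paper used Western blots of both lines after 24 h. It reports no significant decrease in ERK protein or in its phosphorylation with either inhibitor.

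Promoter sequences of 6 of the 10 members were read, in 9 entries of RefSeq on GRCh38.p14. This is the same assembly as hg38, which the submitters' processing notes name. The entries of 3 genes are shown for the 250 bases before the start site, read 5′ to 3′ on the strand of the gene: DUSP1, which was over 2-fold higher in every treated library, DUSP6, a phosphatase of ERK with smaller differences, and SPRED1, which was lower in every treated library. The DUSP1 stretch lies at chr5:172771196-172771445, the DUSP6 stretch at chr12:89352502-89352751, both on the minus strand, and the SPRED1 stretch at chr15:38252586-38252835 on the plus strand. Capitals mark the only match to any of the motifs searched, a cAMP response element (CRE).
DUSP1: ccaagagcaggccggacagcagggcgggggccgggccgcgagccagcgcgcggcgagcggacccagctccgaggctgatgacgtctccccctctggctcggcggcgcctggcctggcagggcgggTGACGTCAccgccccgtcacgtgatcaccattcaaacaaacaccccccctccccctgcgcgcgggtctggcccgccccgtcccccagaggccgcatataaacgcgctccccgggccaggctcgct
DUSP6: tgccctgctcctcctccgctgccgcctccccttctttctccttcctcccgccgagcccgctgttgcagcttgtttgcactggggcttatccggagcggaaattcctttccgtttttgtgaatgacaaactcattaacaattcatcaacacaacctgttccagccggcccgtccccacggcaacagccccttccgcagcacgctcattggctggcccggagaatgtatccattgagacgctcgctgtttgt
SPRED1: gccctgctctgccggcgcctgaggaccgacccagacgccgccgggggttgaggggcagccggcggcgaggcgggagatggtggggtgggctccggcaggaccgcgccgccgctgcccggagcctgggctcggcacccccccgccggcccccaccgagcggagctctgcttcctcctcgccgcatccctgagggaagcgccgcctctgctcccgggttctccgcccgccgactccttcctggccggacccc

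The motifs were searched on both strands: the CRE as TGACGTCA, an AP-1 site as TGANTCA, an ETS site as CCGGAAGT, the composite site of ATF4 as TGATGNAAT and the core of a retinoic acid receptor site as AGGTCA. The CRE of DUSP1 spans bases 125 to 118 before its start site and overlaps no other match. Among 35116 promoters of the same length, 1.65% hold the CRE, 6.57% the AP-1 site, 3.42% the ETS site, 0.888% the ATF4 site and 12.1% the receptor site core. The other 8 entries, for DUSP6, SPRY2, SPRY4, SPRED1 and SPRED2, hold none of these letters in this window. No entry was found for DUSP5, ETV4 and ETV5, and the promoter of DUSP4 is not reported here.

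The values are TPM, in which transcripts are scaled for their length and to the same total in every library, so that levels can be set side by side between genes. The authors deposited them as log2 values with everything under 1 TPM raised to 1 TPM, called the floor here. Between 74.6% and 75.6% of the entries of a library were at the floor, and since the depth of the libraries is unknown, their counting error is too. Fold changes below are ratios of treated to control within a line after 1 TPM was added to each value, on the log2 scale, which understates the change of low genes. As a yardstick for variation, the treated libraries of each line were set against each other, which gave a robust standard deviation per library of 0.29 (log2) for PK-1 and 0.23 for Panc-1. For a difference of 2 libraries this makes 0.41 and 0.32, called the fold change spread, and real differences between the inhibitors are part of it. Both comparisons within a line share its control library. The epithelial keratin genes KRT8, KRT18 and KRT19 were between 156.6 and 6408 TPM in all libraries and lower in the treated libraries of both lines. In PK-1 they stayed within 2-fold of the control, with log2 fold changes of -0.92 and -0.66 for KRT8 and -0.76 and -0.56 for KRT18. After the libraries were rescaled by median ratios, KRT8 with RARγi-1 in PK-1 was at -1.03, past 2-fold. In Panc-1 these keratin genes were over 2-fold lower, where KRT19 went from 1454 TPM in the control to 247 and 157 TPM. EPCAM, another epithelial marker, was between 497.5 and 578 TPM in PK-1 but between 9.18 and 19.4 TPM in Panc-1. The markers CPA1 (acinar), INS (endocrine), PTPRC and CD3E (leukocyte) and PECAM1 (endothelial) were at the floor in all 6 libraries, whereas the acinar gene PRSS1, which has near-identical copies, was at 1.06, 11.1 and 21.2 TPM in the PK-1 libraries and at the floor in Panc-1. RARG, which encodes the receptor, was at 51.1 TPM in PK-1 Control and at 37.5 and 23.5 TPM in the RARγi-1 and RARγi-2 libraries, and at 30.1, 8.83 and 3.27 TPM in the same order in Panc-1.

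In the control libraries, DUSP5 stood out in PK-1 and DUSP4 was missing in Panc-1. DUSP5, the nuclear phosphatase of ERK, was at 97.8 TPM in the PK-1 library and 51.0 TPM in that of Panc-1. In PK-1 it was the highest member, 1.57 (log2) above the next, SPRED2, and the following 8 members, from SPRED2 at 32.2 TPM down to ETV5 at 16.4 TPM, differed from neighbor to neighbor by less than the fold change spread. SPRY2 was the lowest, at 7.54 TPM. In Panc-1, DUSP1 (54.1 TPM), DUSP5 and ETV5 (both 51.0 TPM) formed the top of the order with no gap past the fold change spread between them. That spread was measured for the same gene across libraries, so for gaps between genes it serves only as a scale. DUSP4, a nuclear phosphatase of ERK, JNK and p38, was at 18.1 TPM in PK-1 but at the floor in Panc-1, which makes it at least 18.1-fold higher in PK-1. Of the 10 members, 1 was over 2-fold higher in PK-1 than in Panc-1, against 16.4% of 11441 entries that reached 5 TPM in at least 1 control, and 4 were over 2-fold lower, against 17.7%. The 4 were ETV5, at -1.58 (log2), SPRY2, at -1.30, DUSP1, at -1.27, and SPRY4, at -1.01. SPRY4 is close to the threshold, and the count was 3 after the libraries were rescaled by median ratios. SPRED2, with 32.2 and 31.7 TPM, was nearly level in the lines, at 0.02 (log2).

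**Figure D1:**
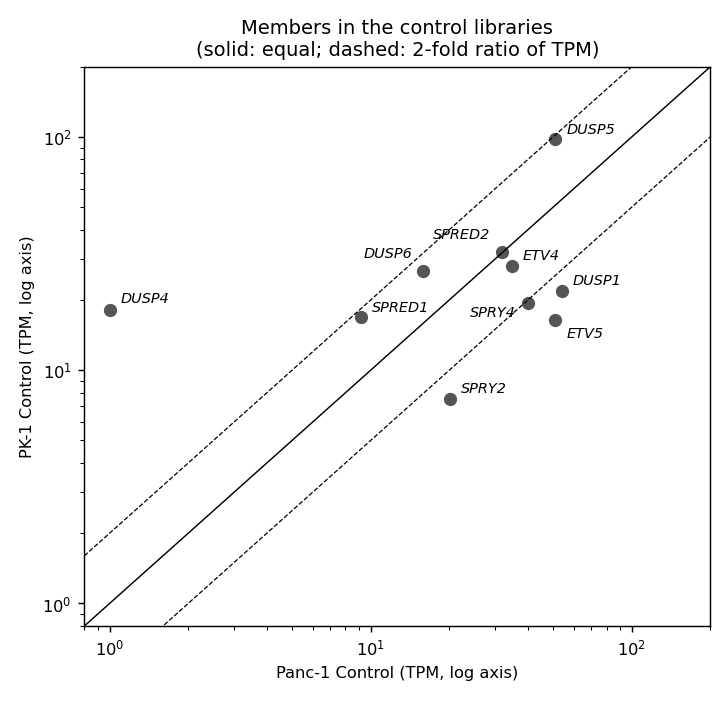
Level of the 10 members in the Panc-1 Control library (x axis) and the PK-1 Control library (y axis), in TPM on log axes, 1 point per gene; the solid line marks equal levels and the dashed lines a 2-fold ratio. DUSP4 lies apart on the left at the 1 TPM floor of Panc-1, and DUSP1, ETV5, SPRY2 and SPRY4 lie on the Panc-1 side.

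Against the control of its line, each treated library had DUSP1, DUSP5 and ETV5 more than 2-fold higher, while DUSP4, SPRY2, SPRED1, SPRED2 and ETV4 were over 2-fold higher in none. In PK-1, 4 of 10 members were over 2-fold higher with RARγi-1, against 10.7% of the 11268 entries that reached 5 TPM in any library of the line, and 3 with RARγi-2, against 13.9%. No member was over 2-fold lower in PK-1, where 5.67% of entries were with RARγi-1 and 14.6% with RARγi-2. In Panc-1, where 9 members were above the floor, 4 were over 2-fold higher with RARγi-1, against 8.58% of 11056 entries, and 3 with RARγi-2, against 9.88%. No member was over 2-fold lower with RARγi-1 in Panc-1, against 7.11% of entries, and 1 was with RARγi-2, against 13.0%. The median log2 fold change of the members for RARγi-1 and RARγi-2 was 0.81 and 0.49 among PK-1 libraries, and 0.90 and -0.04 among those of Panc-1, beside medians over all these entries of 0.15, -0.01, 0.09 and -0.03. Over 2-fold higher in all 4 comparisons were 3 members, DUSP1, DUSP5 and ETV5, as were 336 of the 12412 entries that reached 5 TPM in any of the 6 libraries, which is 2.71%. The members were chosen with earlier results of these data known, and both comparisons within a line share its control. The counts therefore describe the members and are no test of them against the other entries.

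**Figure D2:**
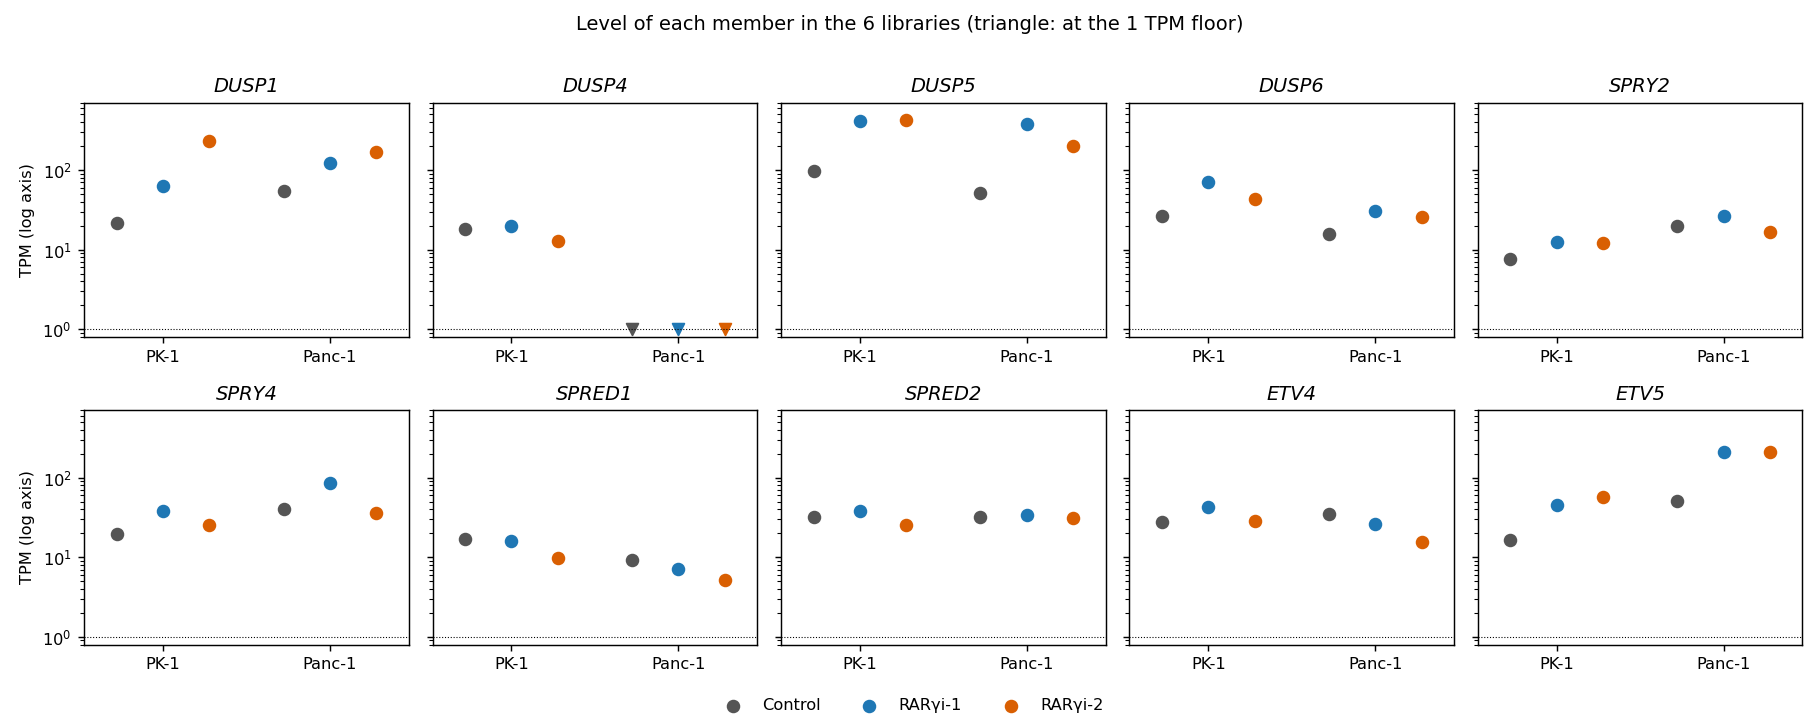
TPM (log axis) of each of the 10 members in the 6 libraries, 1 panel per gene and 1 point per library, with Control in grey, RARγi-1 in blue and RARγi-2 in orange; triangles mark values at the 1 TPM floor. DUSP1, DUSP5 and ETV5 lie higher in all 4 treated libraries than in their controls, SPRED2 is nearly level, and DUSP4 is at the floor throughout Panc-1.

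Among the phosphatases, DUSP5 (Entrez gene 1847, chr10:110497907-110511533) reached the highest level of all members in 3 of the 4 treated libraries. It was at 97.8 TPM in PK-1 Control, at 409.6 TPM after RARγi-1 and at 429.6 TPM after RARγi-2. In Panc-1 it was at 51.0 TPM in the control, at 379 TPM after RARγi-1 and at 202 TPM after RARγi-2. All treated libraries were thus above both controls, and the treated libraries of PK-1 were nearly level while those of Panc-1 were not. As ratios of TPM, DUSP5 was 4.19-fold and 4.39-fold higher among PK-1 libraries and 7.43-fold and 3.97-fold higher among those of Panc-1. Its log2 fold change of 2.87 with RARγi-1 in Panc-1 was above that of 99.7% of the entries, and the other 3, between 1.97 and 2.12, were above 97.3% to 98.5%.

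DUSP1 (Entrez gene 1843, chr5:172768096-172771195), the member with the CRE shown above, encodes a nuclear phosphatase that acts on p38 and JNK as well as ERK and is induced within minutes by mitogens and stress. It was at 21.9 TPM in PK-1 Control, 63.1 TPM after RARγi-1 and 231 TPM after RARγi-2. In Panc-1 it was at 54.1, 124 and 169.5 TPM in the same order. The RARγi-2 library was the highest in each line, and all treated libraries were above both controls. For PK-1 the log2 fold changes were 1.49 and 3.34, the latter a 10.6-fold ratio of TPM and the largest among the members in any comparison, and for Panc-1 they were 1.19 and 1.63.

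DUSP6 (Entrez gene 1848, chr12:89347235-89352501), the cytoplasmic phosphatase selective for ERK, was at 26.7 TPM in PK-1 Control, 70.3 TPM after RARγi-1 and 43.0 TPM after RARγi-2. In Panc-1 it was at 15.9, 30.7 and 25.9 TPM. It was higher in all 4 treated libraries than in the control, each time past the fold change spread. In both lines the RARγi-1 library was the highest, but in Panc-1 it was above the RARγi-2 library by less than that spread. Only RARγi-1 in PK-1 passed 2-fold, at a log2 fold change of 1.37; the others were 0.67, 0.90 and 0.67. DUSP4 was at 18.1, 19.6 and 12.7 TPM in PK-1, with log2 fold changes of 0.11, within the fold change spread, and -0.49, just past it. Since all 3 Panc-1 libraries had it at the floor, no fold change can be given there.

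Of the Sprouty genes, whose products restrain RAS activation below receptor tyrosine kinases, SPRY4 (Entrez gene 81848, chr5:142310430-142325021) was at 19.4 TPM in PK-1 Control, 38.2 TPM after RARγi-1 and 25.5 TPM after RARγi-2. In Panc-1 it was at 40.1, 84.9 and 36.1 TPM. The RARγi-1 library was the highest in each line, and the RARγi-2 library was within the fold change spread of the control, with a log2 fold change of 0.38 for PK-1, which was 0.42 and just past it after rescaling, and -0.15 for Panc-1. With RARγi-1 they were 0.94 and 1.06, and the latter was 0.98 after rescaling, under the 2-fold threshold. SPRY2 (Entrez gene 10253, chr13:80335976-80341126) was at 7.54, 12.6 and 12.0 TPM in PK-1 and at 20.1, 26.6 and 16.8 TPM in Panc-1. Its log2 fold changes of 0.68 and 0.61 (PK-1) and of 0.39 (Panc-1, RARγi-1) were past the fold change spread but under 2-fold, the last of them 0.30 and within it after rescaling, and that of -0.24 (Panc-1, RARγi-2) was within it.

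The SPRED genes stayed within 2-fold of the control in every comparison. SPRED1 (Entrez gene 161742, chr15:38252836-38357249), whose product brings the RAS inactivator neurofibromin to the membrane, was at 16.9 TPM in PK-1 Control, 15.9 TPM after RARγi-1 and 9.77 TPM after RARγi-2. In Panc-1 it was at 9.17, 7.15 and 5.21 TPM. It was the only member lower than the control in all 4 treated libraries; the log2 fold changes with RARγi-1, -0.08 and -0.32, were within the fold change spread, the latter barely and not under any other setting tried, and those with RARγi-2, -0.73 and -0.71, were past it. SPRED2 (Entrez gene 200734, chr2:65307175-65432599) ran from 25.7 to 37.6 TPM over the 6 libraries, with log2 fold changes between -0.31 and 0.22, and was within the fold change spread in all 4 comparisons.

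The PEA3 factors went different ways. ETV5 (Entrez gene 2119, chr3:186046314-186109089) was at 16.4 TPM in PK-1 Control, 45.9 TPM after RARγi-1 and 57.5 TPM after RARγi-2. In Panc-1 it was at 51.0 TPM in the control and at 209 TPM with either inhibitor. With RARγi-2 it was there the highest member, but only 0.05 (log2) above DUSP5, which is within the fold change spread. For PK-1 the log2 fold changes of ETV5 were 1.43 and 1.75, and for Panc-1 both were 2.02, above 95.5% to 98.7% of the entries. ETV4 (Entrez gene 2118, chr17:43527846-43546340) was at 28.0, 43.2 and 28.9 TPM in PK-1 and at 34.7, 26.5 and 15.5 TPM in Panc-1. It was thus highest with RARγi-1 in PK-1 but highest in the control in Panc-1. For PK-1 its log2 fold changes were 0.61 and 0.04, the latter within the fold change spread, and for Panc-1 they were -0.37 and -1.11, where the -1.11 was the only difference over 2-fold downward among the members.

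**Figure D3:**
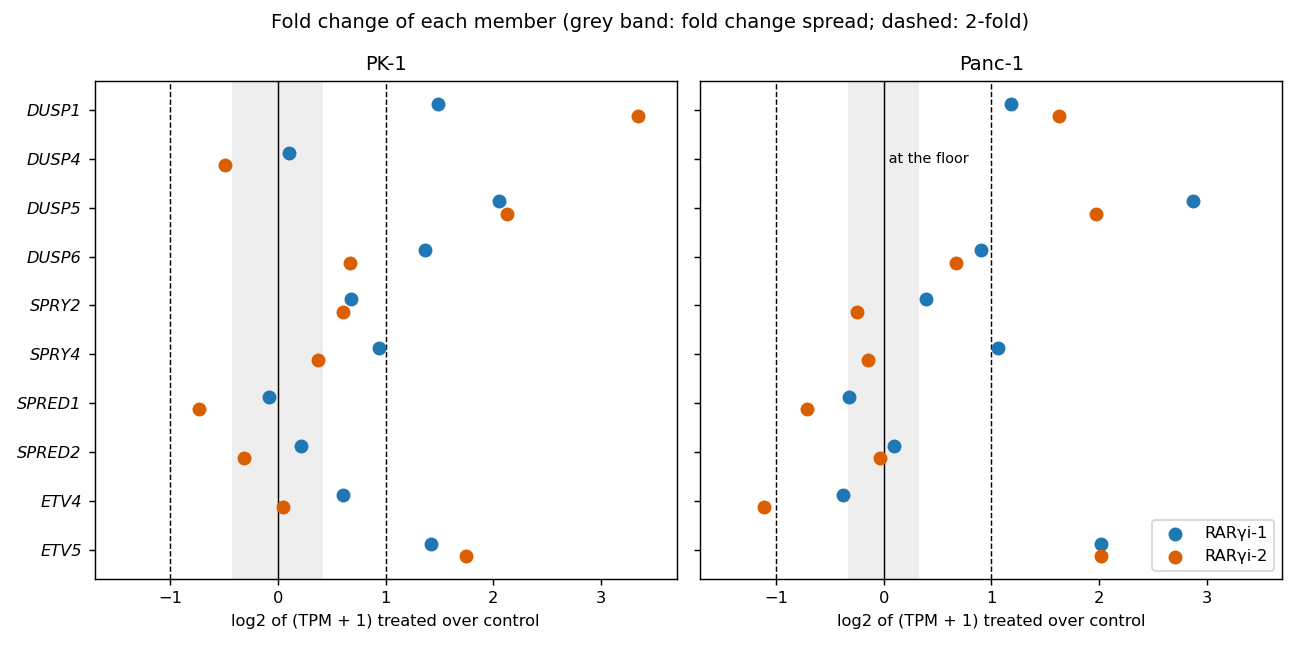
Log2 fold change of (TPM + 1), treated over control, for each member, with the PK-1 panel on the left, the Panc-1 panel on the right, RARγi-1 in blue and RARγi-2 in orange; the grey band is the fold change spread (0.41 on the left, 0.32 on the right) and dashed lines mark 2-fold. DUSP1, DUSP5 and ETV5 lie right of the 2-fold line in all 4 comparisons, SPRED2 lies inside the band, and ETV4 with RARγi-2 in Panc-1 is the only point left of the lower 2-fold line.

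Of the 38 fold changes that could be given, 27 were past the fold change spread and 11 within it. Many entries pass it too: with RARγi-2 in PK-1, 28.9% of all entries lay below -0.49 (log2), itself past that spread. The full share of entries past it was not computed, so the count does not set the members apart. The sum of the members above the floor was 285 TPM in PK-1 Control and 756 and 876 TPM in its treated libraries, and 308 TPM in Panc-1 Control and 923 and 711.5 TPM in the treated libraries. DUSP5 made up 34.3% of this sum in PK-1 Control and 54.2% and 49.1% in the treated libraries, and 16.6%, 41.1% and 28.4% in Panc-1. DUSP5, DUSP1 and ETV5 were the top 3 members in all 3 Panc-1 libraries, the control included. In PK-1 they were so only with RARγi-2, and with RARγi-1 DUSP6 came between DUSP5 and DUSP1.

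The wider RAS-MAPK pathway was followed in 6 lists with 47 genes, of which 3 were at the floor in all libraries and 31 were over 2-fold in no comparison. Of the 11 genes of the ERK cascade, none was over 2-fold in PK-1 and 1 was with each inhibitor in Panc-1. This was BRAF, which encodes a RAF kinase, at 2.98 TPM in the control and 8.89 and 8.47 TPM in the treated libraries; in PK-1 it was at 5.94, 9.31 and 11.2 TPM. The log2 fold changes of the list ran from -0.77 to 0.82 over both PK-1 comparisons and from -0.87 to 1.31 over those of Panc-1, and its medians lay between -0.03 and 0.27. The counts of this and the following lists stand beside the shares of all entries given above, 8.58% to 13.9% over 2-fold higher and 5.67% to 14.6% lower, and with so few genes a count of 1 is near those shares. Among 10 adaptors, exchange factors and RAS GAPs, only the RAS exchange factor gene SOS2 was over 2-fold in any comparison, higher with RARγi-2, at 1.40 for PK-1 and 1.05 for Panc-1, with 0.97 and 0.60 for RARγi-1. Without a pseudocount SOS2 was at 1.05 with RARγi-1 in PK-1, past the threshold.

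Of the 6 further MAPK phosphatases, DUSP16 and DUSP8, which encode phosphatases of JNK and p38, had more than 1 difference over 2-fold upward. DUSP16 was at 2.76, 10.4 and 16.4 TPM in PK-1 and at 5.05, 10.5 and 12.3 TPM in Panc-1, with log2 fold changes of 1.60, 2.21, 0.93 and 1.14. DUSP8 was at 1.44, 3.53 and 5.09 TPM in PK-1 and 3.22, 5.87 and 13.0 TPM in Panc-1, and was over 2-fold higher with RARγi-2 in both lines. Without a pseudocount, DUSP16 passed 2-fold with RARγi-1 in Panc-1 as well, at 1.06, and DUSP8 with RARγi-1 in PK-1, at 1.29. DUSP2 and SPRY1, which did not reach 10 TPM in any library and were picked after their values were seen, were lower: DUSP2 was at 8.45, 2.67 and 1.70 TPM across the Panc-1 libraries and at the floor in PK-1, and SPRY1 was at 6.68, 3.64 and 1.09 TPM across the PK-1 libraries and at 8.69, 3.02 and 2.74 TPM across those of Panc-1. SPRY1, SPRY3, SPRED3 and the third PEA3 gene, ETV1, made up a list with 0 to 1 genes over 2-fold higher and 0 to 2 lower per comparison.

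Further genes often read as ERK output included some over 2-fold higher and some over 2-fold lower. Of 8 such genes, 7 were above the floor, and 4 were over 2-fold higher with RARγi-1 and 3 with RARγi-2 among PK-1 libraries, and 2 and 1 among those of Panc-1; over 2-fold lower were 0 and 1 for PK-1, and 1 and 2 for Panc-1. The shares of all entries, in the same order, were 10.7%, 13.9%, 8.58% and 9.88% higher and 5.67%, 14.6%, 7.11% and 13.0% lower. EGR1, an immediate-early transcription factor, was over 2-fold higher in all 4, at 8.81, 61.5 and 30.2 TPM across the PK-1 libraries and at 6.09, 19.5 and 13.4 TPM across those of Panc-1. IER3, an immediate-early survival gene, was at 136.5, 669 and 731.5 TPM across the PK-1 libraries, but in Panc-1 it was at 410.1 TPM in the control and 713 and 401 TPM in the treated libraries. LIF, a cytokine gene, was over 2-fold higher with RARγi-1 in both lines, at 1.11 and 1.84 (log2), and under 2-fold with RARγi-2, at 0.67 and 0.75. PHLDA1 was over 2-fold higher in PK-1, at 1.08 and 1.07, the former 0.98 after rescaling, and at 0.88 and 0.28 in Panc-1. CCND1, which encodes cyclin D1 of the G1 phase, went the other way: it was at 135, 103 and 46.7 TPM in PK-1 and at 205, 67.3 and 37.2 TPM in Panc-1, with log2 fold changes of -0.39, -1.51, -1.60 and -2.43.

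**Figure D4:**
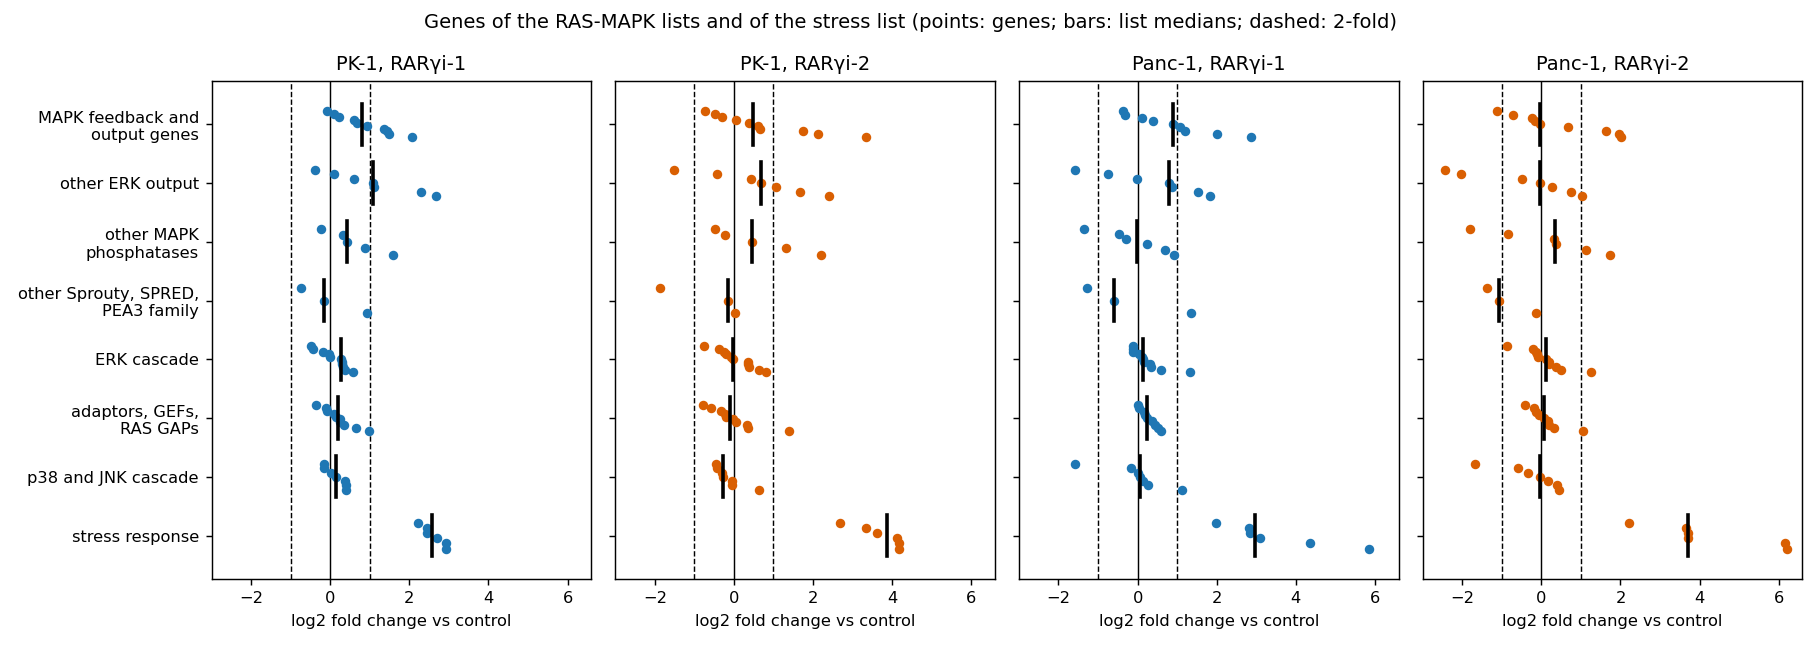
Log2 fold change of (TPM + 1) against control for the genes of 8 lists in the 4 comparisons, 1 point per gene, with the list median as a black bar and dashed lines at 2-fold. The MAPK feedback and output genes spread from below 0 to between 2.02 and 3.34, the ERK cascade stays mostly inside the 2-fold lines, and all 6 stress response genes lie right of them.

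Genes of the stress response were higher in every treated library, as were DUSP1, DUSP5, DUSP6 and ETV5. Every other member was lower than its control in at least 1 treated library. All 6 of ATF3, DDIT3, TRIB3, ASNS, HSPA5 and HMOX1 were over 2-fold higher in all 4 comparisons, beside 2.71% of 12412 entries. This list was chosen with earlier results of these data known, so its count is no test. The list medians were 2.58 and 3.87 for PK-1 and 2.97 and 3.71 for Panc-1. ATF3, a stress-induced transcription factor that binds CRE and AP-1 sites, was at 8.03, 48.3 and 157 TPM in PK-1 and at 5.38, 129 and 469 TPM in Panc-1. It was highest with RARγi-2 in each line, as were DUSP1, DDIT3, TRIB3, HSPA5 and HMOX1. With RARγi-2 the ratio of TPM for ATF3 was larger in Panc-1 (87.2) than in PK-1 (19.6). For DUSP1 it was larger in PK-1 (10.6) than in Panc-1 (3.13). The part of ATF3 in the levels of DUSP1, DUSP5 and ETV5 was not tested. Among the 10629 entries that reached 10 TPM in any library, the patterns nearest to DUSP1 over the 6 libraries, by the root mean square distance of centered log2 values of TPM + 1, were those of JUN (distance 0.29), an AP-1 subunit gene, OSER1-AS1 (0.32), an antisense transcript whose counting by strand is not stated, and ERO1B (0.37), an oxidase gene of the endoplasmic reticulum. JUN was at 65.8, 136 and 378 TPM in PK-1 and at 107, 228 and 273 TPM in Panc-1. Those nearest to DUSP6 were DHX58 (0.07), ZNF155 (0.11) and EZH1 (0.14), none of which passed 19.2 TPM in any library. Among the members, the nearest to DUSP1 was ETV5, at 0.85. For DUSP6 they were ETV4 (0.621), SPRED2 (0.624) and SPRED1 (0.645), with little between them. The genes named before were picked as the nearest of all entries, so the members are farther by construction. The distance also takes in the level of each line: ETV4 was lower in the treated Panc-1 libraries, where DUSP6 was higher. These distances describe 6 libraries that share their controls and carry no test.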

How the data were processed

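RNA was taken from PK-1 and Panc-1 cells, and libraries were made with a strand-specific mRNA kit, 1 per condition. The authors deposited log2 values of TPM per gene, with values under 1 TPM raised to 1 TPM, a floor read from the values. The submitters' processing notes name hg38; the aligner, counting method and annotation are not given in the sources used here. From the deposited log2 values linear TPM were computed, and fold changes were computed with a pseudocount of 1 TPM. For a repeated symbol the entry with the highest mean is used; 113 symbols are repeated, none of them a member. The background holds entries that reached 5 TPM in any library of the line. With 1 library per condition no test was run. The spread is 1.4826 times the median absolute deviation between the treated libraries of a line, divided by the square root of 2.

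Named are the members, genes of the wider lists that reached 10 TPM in any library and were over 2-fold the same way in at least 2 comparisons, the ERK cascade by its range, the 3 nearest patterns to DUSP6 and to DUSP1, the stress genes and RARG; DUSP2, SPRY1, EPHA2 and MAP3K5 are exceptions. The members and lists were chosen with earlier results of these data known. Some genes of the ERK cascade list are not reported here by name. The steps were tested on simulated data. Python 3.11.15, pandas 2.3.3 and numpy 2.4.6 were used. Alternatives were no pseudocount, a pseudocount of 0.1 TPM, median-ratio rescaling, thresholds of 1.5 and 3-fold, and no filter beyond the floor.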

Additional observations from a re-analysis of the deposited data

Results flagged for a closer look

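ETV4 is the member whose direction differed between the lines with both inhibitors. It was higher than the control in PK-1, at 0.609 (log2) after RARγi-1 and 0.044 after RARγi-2, and lower in Panc-1, at -0.374 and -1.111. The value of 0.044 was within the fold change spread of 0.41, each line has 1 control library, and the difference between the lines was not tested.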

How the results depend on the processing

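No pseudocount, a pseudocount of 0.1 TPM and rescaling by median ratios moved all 114 recomputed member fold changes and all 12 recomputed medians by less than the spread per library, and none changed sign. Of the comparisons of treated with control libraries, the 1 member call that changed was SPRY4 with RARγi-1 in Panc-1, at 0.98 (log2) after rescaling, which left 3 members over 2-fold higher there. The fold threshold moved the counts. At 1.5-fold, 7 members were higher with RARγi-1 and 5 with RARγi-2 in PK-1, 1 was lower with RARγi-2 in PK-1 and 2 in Panc-1. At 3-fold, 1 PK-1 member and 2 Panc-1 members were higher with RARγi-1, and 0 were lower with RARγi-2 in Panc-1. The shares of all entries at 1.5-fold and 3-fold were not computed. These counts therefore show only their dependence on the threshold and cannot be set against a background. Rescaling shifts all fold changes with RARγi-1 down, by 0.11 for PK-1 and by 0.09 for Panc-1. Without the filter at 5 TPM, the shares of entries over 2-fold lay between 4.85% and 12.3%, each within 1.5 times its value with the filter. Of 114 readings against the fold change spread 5 changed, in SPRY2, SPRY4 and SPRED1. No paired analysis was possible because each comparison lies within a line, where a condition has 1 library and no replicate number; a fit over both lines with the line as a block was not run. Depth is unknown, so low genes such as DUSP8, DUSP2 and SPRY1 carry an error that cannot be given.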

Other observations

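The genes of the p38 and JNK cascade hold the kinases p38 and JNK, on which DUSP1 and DUSP16 act, and kinases above them. Of 8 genes, 7 were above the floor in at least 1 library, and 0 were over 2-fold in PK-1, beside 10.7% (RARγi-1) and 13.9% (RARγi-2) of all entries higher and 5.67% and 14.6% lower. In Panc-1, 1 was higher and 1 lower with RARγi-1, beside 8.58% and 7.11%, and 0 were higher and 1 lower with RARγi-2, beside 9.88% and 13.0%. MAP2K3, which encodes a kinase that activates p38, was at 107 TPM in Panc-1 Control and 35.1 and 32.9 TPM in the treated libraries, which is -1.58 and -1.67 (log2), beside -0.17 and -0.26 in PK-1. MAP3K5, which encodes the stress kinase ASK1 and was picked after its values were seen, was at 4.13 TPM in Panc-1 Control and 10.1 and 5.94 TPM in the treated libraries, and was over 2-fold higher with RARγi-1 alone, at 1.11.

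EPHA2, a receptor tyrosine kinase gene of the ERK output list that was also picked after its values were seen, was at 93.5, 99.7 and 69.7 TPM in PK-1 and at 245, 146 and 58.8 TPM in Panc-1. Its log2 fold change of -2.04 with RARγi-2 in Panc-1 stood among the 13.0% of all entries that were over 2-fold lower there.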
